A study of Mus musculus with 4 samples.

Results

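Immediate early genes are genes that a cell can switch on within minutes of a stimulus without making new protein first, and many of them code for transcription factors. The best known, Fos and Jun, form AP-1. The genes described here are 10 immediate early genes outside AP-1: Egr1, Egr2 and Egr3, zinc finger transcription factors of the early growth response family; Nr4a1, Nr4a2 and Nr4a3, orphan nuclear receptors; Ier2 and Ier3, short immediate early response proteins; Arc, a cytoskeleton-associated protein of activated neurons; and Btg2, an antiproliferative protein of the BTG/Tob family. They were chosen by symbol from the 23420 genes of the deposited tables, and all 10 were among the 16088 genes with enough reads to be tested.

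The cells came from cochleae of postnatal day 1 CD1 mice carrying Atoh1-GFP, a transgene in which Atoh1 regulatory sequence drives GFP in hair cells, the sensory cells of hearing. Cultured organs were left untreated or received 0.5 mM gentamicin, an aminoglycoside antibiotic toxic to hair cells, for 3 h. They were then digested with enzymes, and GFP-positive hair cells and GFP-negative non-hair cells were sorted from them. The GFP-negative sort holds the other cells of the dissected epithelium and its surroundings, including supporting cells and mesenchyme. Cells with low GFP, such as inner phalangeal cells, were left out of the sorts by gating, per the study. Each of the 4 groups (control hair cells, gentamicin-treated hair cells, control non-hair cells and gentamicin-treated non-hair cells) was sequenced in 3 replicates, so all groups share the strain, the transgene, the culture and the dissociation.

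The sorts carried their labels for hair cell markers. All 8 hair cell markers were higher in control hair cells than in control non-hair cells, with a summed level of 11321 to 11769 in the former and 244 to 270 in the latter. The summed level of the 8 supporting cell markers overlapped between the sorts. It was 1735 to 2097 in control hair cells and 1470 to 2283 in control non-hair cells. The values are normalized read numbers, that is, reads scaled within each replicate with 1 added, and reads on genes numbered 22400669 to 28152292 per library. In hair cells 2037 genes rose and 2381 fell after gentamicin by the criteria used below, whereas with scaling by total reads 2774 rose and 1591 fell. Mesenchyme markers in the hair cell libraries differed with treatment: the 6 of them, 3 of which fell by the criteria, summed to between 187 and 470 in control hair cells and to between 97.2 and 155 in treated ones. In non-hair cells the treated replicate 3 stood apart from the other two. Results that rest on these features are given with and without them.

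Transcription of immediate early genes typically starts when kinases of the ERK pathway, or calcium and cyclic AMP signals, act on factors that already sit at the promoter: serum response factor with its ternary complex partners at CArG boxes, and CREB at cyclic AMP response elements (TGACGTCA, with the core TGACG). Most immediate early mRNAs are also short-lived, so their level follows recent transcription closely. Of the 10 genes, Egr1 was left out of the promoter search, and no usable sequence was at hand for Egr3, Ier2 and Arc. Promoter sequence from RefSeq was searched for the other 6, Egr2, Nr4a1, Nr4a2, Nr4a3, Ier3 and Btg2. The 250 bases before the start are shown for 5 of them, 5′ to 3′ on the strand of the gene in GRCm38.p6: Egr2, the gene among these with a CArG box, Nr4a2 and Ier3, which met the criteria for a fall in hair cells, and Nr4a3 and Btg2, which did not. Capitals mark matches on either strand to the CArG box, TGACGTCA or TGACG.
Egr2, chr10:67537619-67537868, plus strand: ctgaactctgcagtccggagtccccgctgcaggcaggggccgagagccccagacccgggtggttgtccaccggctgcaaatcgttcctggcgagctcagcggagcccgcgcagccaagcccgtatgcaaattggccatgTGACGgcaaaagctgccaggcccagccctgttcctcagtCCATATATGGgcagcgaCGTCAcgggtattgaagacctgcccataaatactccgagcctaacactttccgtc
Nr4a2, chr2:57124004-57124253, minus strand: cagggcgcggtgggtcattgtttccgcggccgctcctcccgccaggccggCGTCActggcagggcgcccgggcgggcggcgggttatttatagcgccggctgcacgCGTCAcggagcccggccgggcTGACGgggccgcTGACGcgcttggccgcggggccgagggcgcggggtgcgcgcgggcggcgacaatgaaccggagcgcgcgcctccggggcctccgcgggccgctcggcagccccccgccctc
Nr4a3, chr4:48045055-48045304, plus strand: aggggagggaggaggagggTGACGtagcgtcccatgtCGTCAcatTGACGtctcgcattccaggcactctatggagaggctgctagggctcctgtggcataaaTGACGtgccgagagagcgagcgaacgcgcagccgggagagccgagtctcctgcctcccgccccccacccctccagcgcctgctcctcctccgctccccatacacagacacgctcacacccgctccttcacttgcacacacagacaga
Ier3, chr17:35821463-35821712, plus strand: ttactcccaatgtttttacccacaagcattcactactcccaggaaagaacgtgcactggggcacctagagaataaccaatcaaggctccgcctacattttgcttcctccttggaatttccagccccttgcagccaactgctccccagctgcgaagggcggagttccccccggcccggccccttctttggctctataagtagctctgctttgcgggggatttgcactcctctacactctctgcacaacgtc
Btg2, chr1:134079156-134079405, minus strand: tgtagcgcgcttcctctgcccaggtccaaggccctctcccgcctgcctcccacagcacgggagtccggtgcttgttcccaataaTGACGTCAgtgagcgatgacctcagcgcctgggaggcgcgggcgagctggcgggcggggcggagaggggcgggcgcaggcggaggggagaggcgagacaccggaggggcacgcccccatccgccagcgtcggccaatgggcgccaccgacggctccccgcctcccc

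Over the 300 bases searched, which add 50 bases after the start, 5 of the 6 promoters held TGACG, a letter string found on either strand in 20.8% of the 32851 mouse promoters in the table. The 3 Nr4a promoters held 4 matches each, and 0.231% of all promoters held at least 4. In Btg2 the matches overlapped in the full palindrome TGACGTCA, at position -166 from the start, and 1.79% of promoters held that string. Egr2 had a CArG box at position -72, as 1.63% of promoters do, with TGACG at positions -111 and -55. Nr4a1 had a match to the EGR site GCGGGGGCG or GCGTGGGCG at position -60, a string in 3.47% of promoters. TGAGTCA and TGACTCA, the AP-1 site, were found in 5.2% of promoters and in none of the 6, and the Ier3 window held none of the strings searched. A match describes the letters in this window and not a bound site.

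The genes are also compact. Ier3 spans 1240 bases on chromosome 17 (35821684 to 35822923) and Btg2 spans 3951 bases on chromosome 1 (134075170 to 134079120), both in the GRCm38 (mm10) annotation. The median span of the 10 genes was 5287 bases, against 24745 bases for the tested genes with a coding model, and 7 of them spanned under 10000 bases, as 24.1% of those genes did. Their longest coding transcripts had a median of 2 exons, against 9. Nr4a3 was the longest at 41295 bases.

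Levels per kilobase of exon ranked the genes differently in the 2 control populations. In control hair cells Btg2 was the most abundant, at 253.5 ± 12.8 normalized reads per kilobase (SD, n = 3), followed by Egr1 at 174 ± 33.7 and Ier2 at 152 ± 27.7, which lay within 1 SD of each other. These 3 genes were above the 98th percentile of tested genes there (99.0, 98.4 and 98.1). Nr4a1 came next at 69.1 ± 16.4. Egr2 (20.1 ± 7.35) and Ier3 (19.6 ± 4.12) could not be separated, nor could Arc (8.90 ± 3.77) and Egr3 (5.97 ± 1.82). Nr4a2 (2.85 ± 0.227) and Nr4a3 (1.34 ± 0.327) were the lowest. In control non-hair cells Ier2 led at 742 ± 88.8 per kilobase, Egr1 followed at 605 ± 70.3, and Ier3 (254 ± 34.4), Nr4a1 (205 ± 67.3) and Btg2 (204 ± 32.8) came next. Nr4a1 could not be separated from either Ier3 or Btg2 by its spread, and Nr4a3 was again the lowest at 1.05 ± 0.231.

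**Figure D1:**
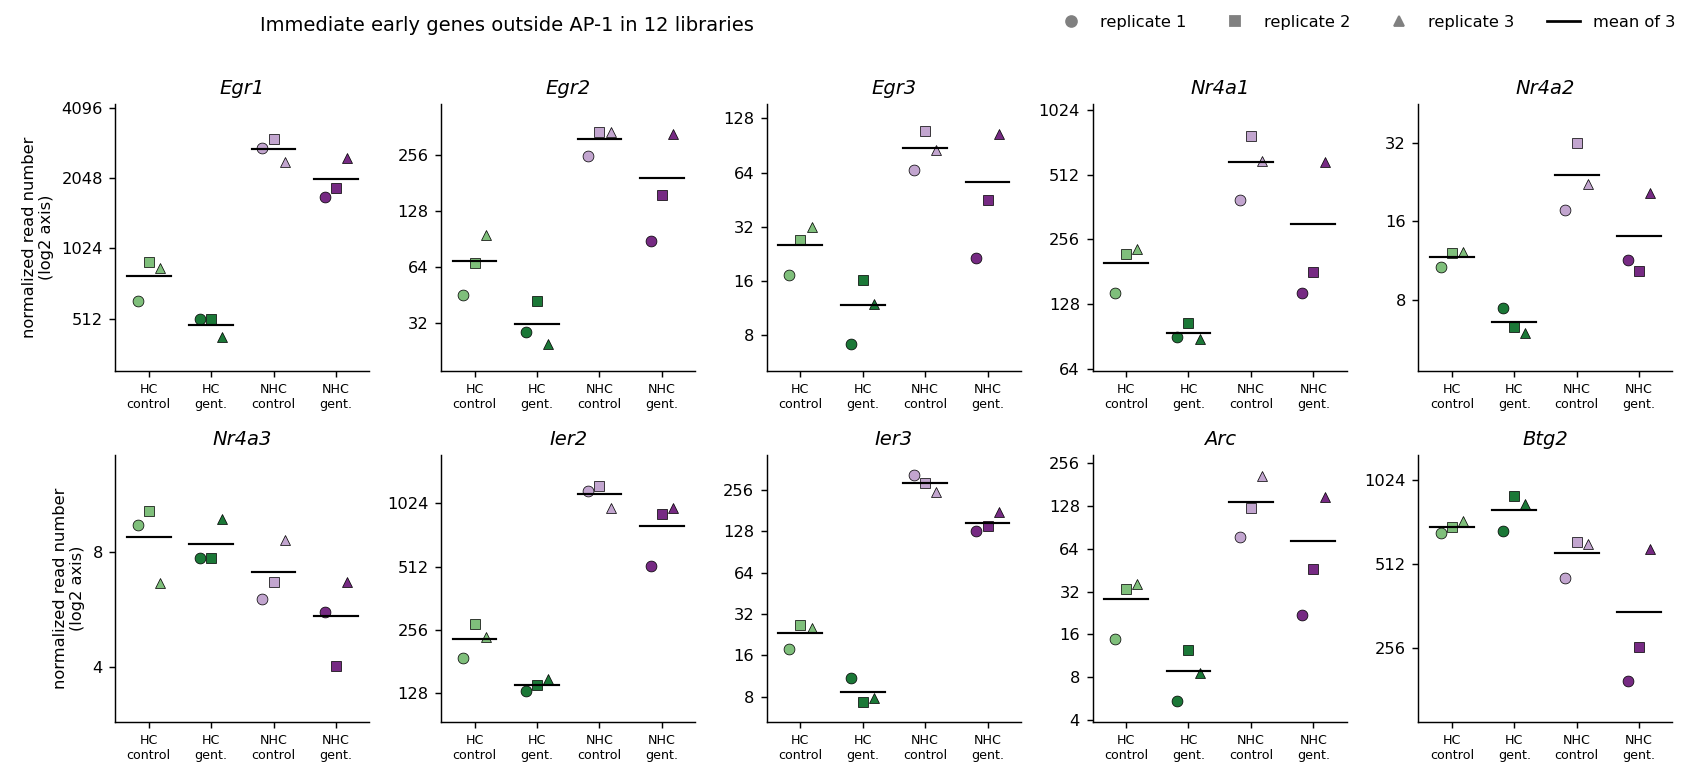
Normalized read number of each gene in the 12 libraries, on a log2 axis whose range differs between panels (circles, squares and triangles, replicates 1, 2 and 3; black bars, group means; HC, hair cells; NHC, non-hair cells; gent., gentamicin). Both hair cell groups lie below the control non-hair cells in 8 panels, but not in those of Nr4a3 and Btg2, and among the gentamicin-treated non-hair cells replicate 3 is the highest for all 10 genes.

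Control levels were measured after culture, digestion and sorting, and levels before these steps were not measured. In these controls, 8 of the 10 genes were lower in hair cells than in non-hair cells at an adjusted p under 0.05 (limma, Benjamini-Hochberg over all tested genes). Of all tested genes 42.1% were lower by this test, so the direction by itself is common. The median log2 difference was -1.80 for the 10 genes and -0.12 for all genes. Ier3, a stress-inducible gene under NF-κB control that is linked to cell survival, showed the widest gap. Its normalized reads were 17.9, 26.5 and 25.1 in control hair cells and 327, 288 and 249 in control non-hair cells, a 12.5-fold lower level (log2 difference -3.65 ± 0.19 SE, limma adjusted p = 1.35e-08). Ier2, a nuclear protein linked to transcriptional control, had 188, 272 and 237 in hair cells against 1176, 1235 and 977 in non-hair cells (-2.29 ± 0.22, limma adjusted p = 1.63e-06). The replicates of the 2 populations were far apart for both genes.

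The EGR factors followed. Egr1, the most widely induced member of its family, had 610, 892 and 844 normalized reads in control hair cells and 2737, 3016 and 2387 in control non-hair cells (-1.81 ± 0.18, limma adjusted p = 3.27e-06). Egr2, which is known for its part in Schwann cell myelination, differed by -2.23 ± 0.41 (limma adjusted p = 4.26e-04) and Egr3 by -1.79 ± 0.49 (limma adjusted p = 0.00615). Arc differed by -2.26 ± 0.63 and Nr4a1, a receptor induced by many growth and stress signals, by -1.54 ± 0.44, with limma adjusted p-values of 0.00653 and 0.00733. Nr4a2, which is needed for midbrain dopamine neurons, differed least among the 8, by -1.0 ± 0.26 (limma adjusted p = 0.00473). The replicates of the 2 populations did not overlap for any of the 8, as for 44.6% of tested genes in this direction. The 2 exceptions were Nr4a3, with 9.42, 10.2 and 6.62 against 6.04, 6.66 and 8.61 (0.29 ± 0.23, limma adjusted p = 0.258), and Btg2, with 660, 698 and 731 against 456, 616 and 606 (0.33 ± 0.31, limma adjusted p = 0.355). All 3 hair cell values of Btg2 were above all 3 non-hair cell values, as for 34.5% of tested genes, but the difference did not pass the test. In bulk populations, fewer cells that express a gene and less RNA per cell cannot be told apart.

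After 3 h of gentamicin, 4 of the 10 genes fell in hair cells (a change of more than 1.2-fold with a limma p below 0.01 before adjustment, the criteria of the study), and none rose. By the same criteria 14.8% of all tested genes fell and 12.7% rose. The 4 were Ier3, Egr1, Ier2 and Nr4a2, and all had limma adjusted p-values under 0.05, as did 18.4% of tested genes in this direction. The replicates did not overlap for 8 of the 10 genes, all lower after treatment, against 33.1% of tested genes. The median log2 fold change was -0.94 for the 10 genes and -0.09 for all tested genes. With 3 replicates against 3, an exact permutation test of one gene cannot give a two-sided p below 0.1, and it gave 0.1 for each of these 8 genes.

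Ier3 fell the most among the genes that met the criteria. Its normalized reads went from 17.9, 26.5 and 25.1 to 11, 7.36 and 7.81, a 2.66-fold fall (-1.41 ± 0.19 SE, limma adjusted p = 3.83e-04), and it met the criteria whichever hair cell library was left out. Every treated replicate was below every control. Egr1 went from 610, 892 and 844 to 510, 509 and 430, a 1.6-fold fall (-0.68 ± 0.18, limma adjusted p = 0.0163). The treated Egr1 values were close together, and the nearest control, replicate 1, was the lowest of its group. Ier2 went from 188, 272 and 237 to 131, 140 and 149 (-0.72 ± 0.22, limma adjusted p = 0.0259). Nr4a2 went from 10.7, 12.1 and 12.2 to 7.48, 6.28 and 6.0 (-0.83 ± 0.26, limma adjusted p = 0.0317), levels that rest on 126 to 260 reads per library. With 1 hair cell library left out, Egr1 met the criteria in 3 of 6 fits, Ier2 in 1 and Nr4a2 in 0, and only 1 of the 10 genes was called without control replicate 2, without control replicate 3 or without treated replicate 3. In these 3 fits 1652, 1877 and 2158 of the 16088 tested genes fell.

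The other 4 genes without overlap, Arc, Egr3, Egr2 and Nr4a1, did not pass, although their fold changes were larger in size than those of Egr1, Ier2 and Nr4a2. Arc had 14.9, 33.7 and 36 in controls and 5.45, 12.4 and 8.63 after gentamicin (-1.65 ± 0.63, limma adjusted p = 0.0631). Egr2 had 45.3, 67.7 and 95.2 in controls and 28.5, 41.8 and 24.8 after gentamicin (-1.10 ± 0.41, limma adjusted p = 0.0605). Both spread more between control replicates than the genes that passed, and in both the lowest control was close to the highest treated value. Nr4a1 had 144, 220 and 230 against 89.8, 104 and 88.1 (-1.05 ± 0.44, limma adjusted p = 0.0857). Egr3 had 17.3, 27.1 and 32 against 7.10, 16.2 and 12 (-1.15 ± 0.49, limma adjusted p = 0.0944). The model estimated 1 spread per gene over all 4 groups, and the spread of these genes in treated non-hair cells entered it. In a fit of the 2 hair cell groups alone, 8 of the 10 genes fell by the criteria, all but Nr4a3 and Btg2, while 18.2% of all tested genes did. Arc then had a limma adjusted p of 0.0140 and Nr4a1 of 0.00337 (fold changes unchanged).

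Nr4a3 and Btg2 stood apart from the other genes in hair cells as well. Nr4a3, the third member of its receptor family, had 9.42, 10.2 and 6.62 in controls and 7.72, 7.70 and 9.77 after gentamicin (-0.05 ± 0.23, limma adjusted p = 0.899). Btg2, which recruits the CCR4-NOT deadenylase to mRNAs and is a p53 target, had 660, 698 and 731 in controls and 672, 895 and 837 after gentamicin (0.19 ± 0.31, limma adjusted p = 0.67). The groups overlapped for both genes, and neither met the criteria in hair cells in any fit that was run.

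**Figure D2:**
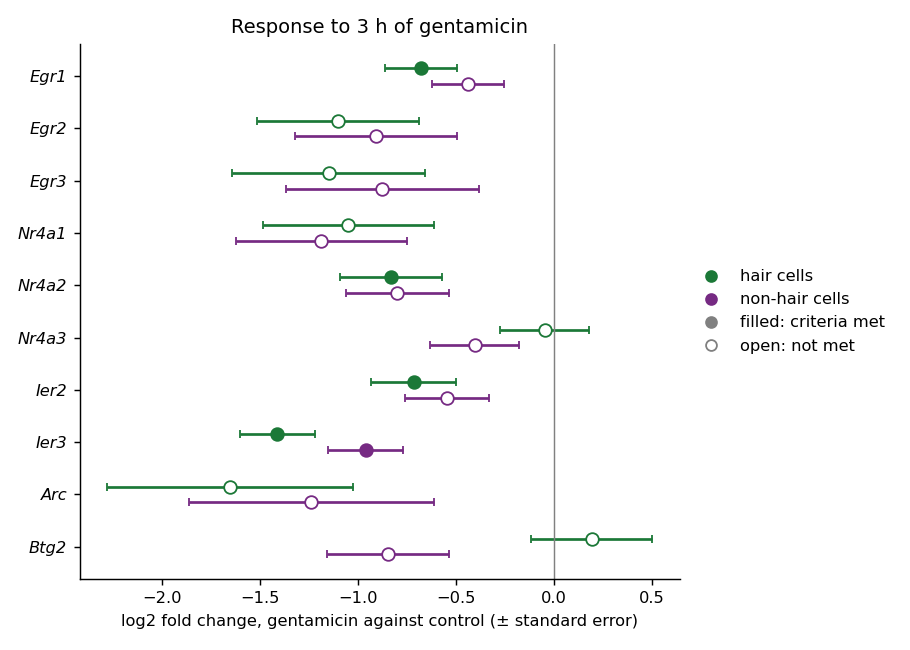
Log2 fold change after gentamicin with its standard error from limma (horizontal axis) for each gene in hair cells (green) and non-hair cells (purple). Filled points met the criteria, which were Egr1, Nr4a2, Ier2 and Ier3 in hair cells and Ier3 in non-hair cells. Every point lies below 0 except Btg2 in hair cells at 0.19.

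Markers of other cells in the hair cell libraries moved with these values, and most of the genes were more abundant in non-hair cells. Taken as the level of the 6 mesenchyme markers relative to non-hair cells of the same treatment, the share of mesenchymal RNA was 3.06, 7.68 and 3.28% in control hair cells and 1.31, 1.73 and 2.09% in treated ones. The control level of Ier3 in hair cells, with the added 1 included, was 8.04% of that in non-hair cells. This was above every control share, of which 7.68% was the nearest. The levels of Ier2, Arc, Egr2, Egr1, Egr3, Nr4a1 and Nr4a2 were between 20.6 and 48.7% of those in non-hair cells. When this share of the non-hair cell profile was subtracted from each hair cell library, an alternative added after the data were seen, Ier3 had 9.32, 4.77 and 16.2 in controls and 9.20, 4.88 and 4.80 after gentamicin. Its groups then overlapped (-0.58 ± 0.38, limma adjusted p = 0.269).

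After subtraction 1 of the 10 genes met the criteria, while 13.1% of all tested genes fell by them. That gene was Egr1, with 543, 740 and 780 against 490, 483 and 396 (-0.58 ± 0.18, limma adjusted p = 0.0332). The log2 fold changes of Arc (-1.53), Egr3 (-1.07), Nr4a1 (-0.96), Egr2 (-0.93), Nr4a2 (-0.78) and Ier2 (-0.54) kept their direction. The groups were free of overlap for Egr1, Nr4a1, Nr4a2 and Ier2, 4 of the 10, against 28.9% of tested genes in this direction. The subtraction assumes that mesenchyme carries the non-hair cell average of each gene, which was not tested. Markers of other cells moved as well: the 8 supporting cell markers, 2 of which fell by the criteria, summed to between 1735 and 2097 in control and between 771 and 1446 in treated hair cells, and the 6 Schwann cell markers, 3 of which fell, to between 174 and 224 and between 81.0 and 144. Of the remaining lists, 1 of 8 endothelial, 0 of 8 macrophage, 1 of 3 tested melanocyte, 0 of 6 neuron and 0 of 3 tested erythroid markers fell in hair cells, and none rose. No marker of mesenchyme, supporting cells or Schwann cells was at 0 in all replicates of a group. The part of these cells in the fall of the 10 genes was not tested.

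**Figure D3:**
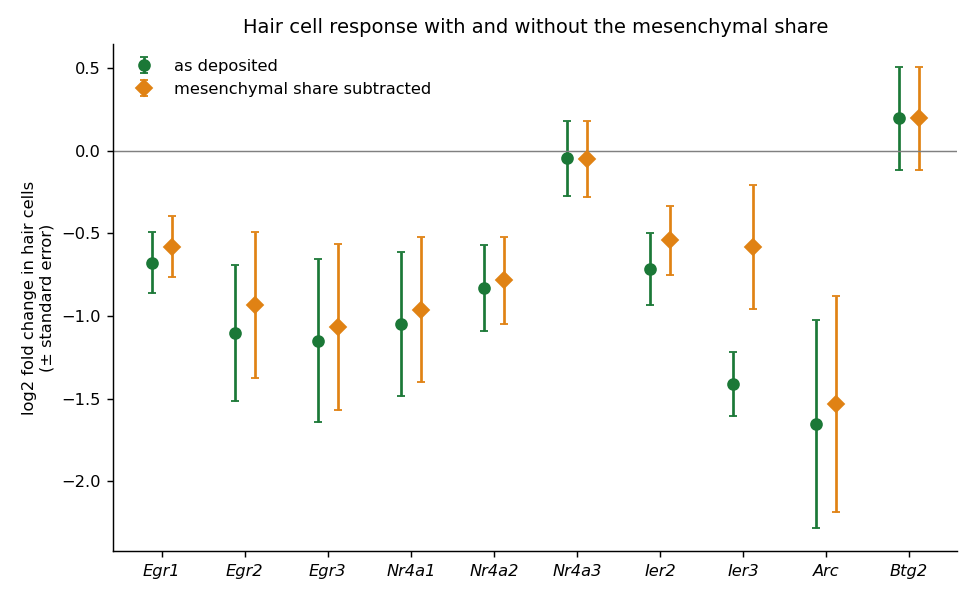
Log2 fold change after gentamicin in hair cells with its standard error from limma (vertical axis) for each gene, from the deposited values (green circles) and after the mesenchymal share was subtracted (orange diamonds). Ier3 moved from -1.41 to -0.58, and the other 9 genes moved by less than their standard errors.

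In non-hair cells the fold changes of all 10 genes were below 0, with a median of -0.86 against -0.01 for all tested genes, but 1 gene met the criteria. Of all tested genes 2.26% fell by them. This gene was Ier3, from 327, 288 and 249 to 130, 139 and 177 normalized reads, a 1.94-fold fall (-0.96 ± 0.19 SE, limma adjusted p = 0.0623), with every treated replicate below every control. At a limma adjusted p under 0.05 the count of falls was 0 of 10, against 0.106% of tested genes, and 6 of the 10 had a fall at an unadjusted p under 0.05, against 8.27% of tested genes. Only Ier2 joined Ier3 in having no overlap, with 1176, 1235 and 977 against 516, 907 and 976 (-0.55 ± 0.22, limma adjusted p = 0.232). The highest treated and lowest control values of Ier2 were nearly equal, and 7.68% of tested genes were lower without overlap.

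In most of the other genes treated replicate 3 differed from the other two. Nr4a1 had 390, 774 and 595 in controls and 144, 181 and 585 after gentamicin (-1.19 ± 0.44, limma adjusted p = 0.207). Btg2 had 456, 616 and 606 in controls and 196, 258 and 581 after gentamicin (-0.85 ± 0.31, limma adjusted p = 0.206). Arc had 77.0, 124 and 208 in controls and 22, 46.3 and 149 after gentamicin (-1.24 ± 0.63, limma adjusted p = 0.339). In all 3 genes treated replicates 1 and 2 were below every control, and replicate 3 was at the level of the controls. Egr2 (88.5, 156 and 333 after gentamicin), Egr3 (21.5, 44.9 and 105) and Nr4a2 (11.3, 10.3 and 20.5) had the same order of replicate 3 above the other two, as did Egr1 (1705, 1858 and 2498).

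That library stood apart by the values of these same genes. It was the highest treated replicate for all 10, so leaving it out had to enlarge every fall. Without that library, 9 of the 10 genes met the criteria in non-hair cells, all but Nr4a3, while 5.22% of all tested genes fell by them. The fold changes were then -1.80 ± 0.27 for Nr4a1 (limma adjusted p = 0.0318), -1.30 ± 0.17 for Btg2 (limma adjusted p = 0.0256) and -1.98 ± 0.51 for Arc (limma adjusted p = 0.0676). Without control replicate 1 the count was 2, and without any other single non-hair cell library it was 1. Of the 16088 tested genes 761 fell without control replicate 1, and between 157 and 343 without one of those other libraries. The 6 neuron markers, 1 of which fell by the criteria, varied between the same libraries: they summed to 498, 1351 and 1198 in control non-hair cells and to 484, 227 and 913 in treated ones, so that treated replicate 3 held the most neuronal RNA of its group and control replicate 1 the least of its own. Supporting cell and Schwann cell markers were likewise lowest in control replicate 1 and highest in treated replicate 3. Supporting cell sums were 1470, 1651 and 2283 in controls and 1564, 1243 and 1992 after gentamicin. Schwann cell sums were 468, 648 and 640 in controls and 468, 451 and 572 after gentamicin. In every other list treated replicate 2 was the highest, and mesenchyme markers had 7269, 9247 and 5800 after gentamicin. Of the lists other than neurons, 2 of 8 endothelial markers rose and 1 of 3 tested melanocyte markers fell in non-hair cells, and the rest had none that met the criteria. The part of neurons and of the other cells in the levels of the 10 genes was not tested.

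The spread of these genes between replicates had a higher median than that of all tested genes in each group. The all-gene values were not matched for expression level, and the part of cell composition was not tested. The SD of log2 values within treated non-hair cells had a median of 0.677 over the 10 genes, against 0.157 over all tested genes. It was 0.322 against 0.0945 in control hair cells, 0.207 against 0.127 in treated hair cells and 0.257 against 0.145 in control non-hair cells. Between 9 and 10 of the genes exceeded the all-gene median in each group. The widest was Arc in treated non-hair cells, whose highest replicate was 6.76 times its lowest, and the narrowest was Btg2 in control hair cells, at 1.11 times.

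The genes also moved together from one replicate to the next. In treated non-hair cells all 10 were above their group mean in replicate 3, by a median of 0.77 on the log2 scale, whereas replicates 1 and 2 had 1 gene each above it. Control replicate 1 was low in both populations, with 1 of 10 genes above the mean in hair cells (median -0.35) and 3 of 10 in non-hair cells (median -0.29). The median deviation of all tested genes lay between -0.0126 and 0.0108 in every library, as the scaling of each library and the centring on group means fix it near 0. Over the 12 libraries, Pearson's r between the deviations of 2 genes had a median of 0.63 over the 45 pairs and ranged from -0.13 to 0.94. The 9 pairs with Nr4a3 had a median of 0.15, and the 36 others one of 0.69. For most of the genes the largest deviation was in treated non-hair cells, as for Arc (-1.28, -0.20 and 1.48), so those libraries weigh heavily in r. No r for pairs of all tested genes is given beside it. These correlations share their libraries and are given as a description.

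**Figure D4:**
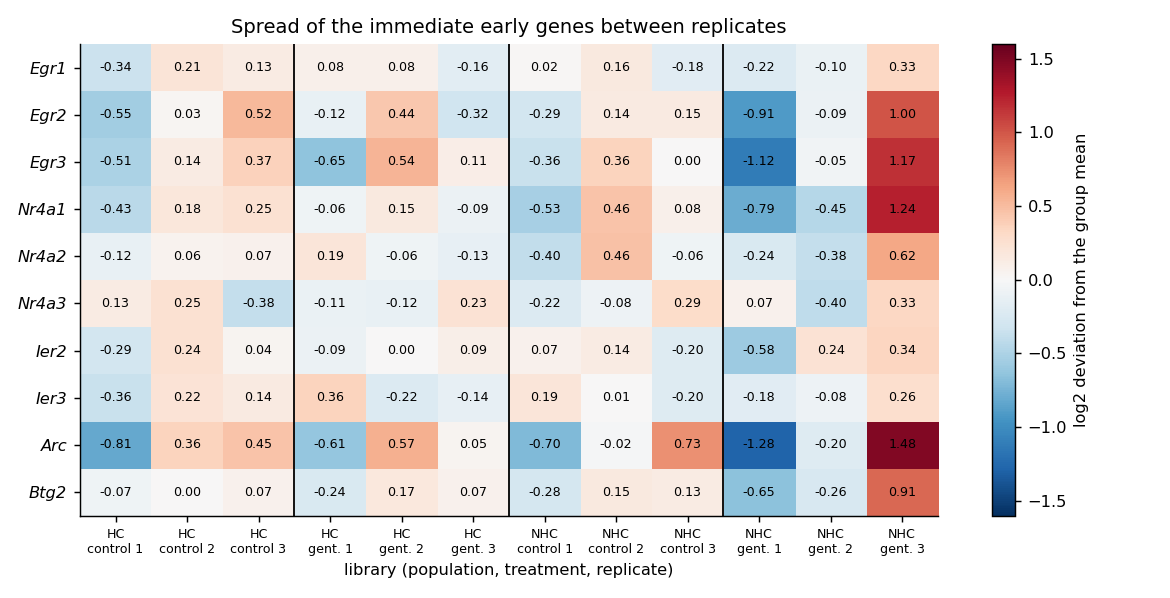
Deviation of each gene from the mean of its group on the log2 scale (colour and printed value) in the 12 libraries (columns, grouped by population and treatment; HC, hair cells; NHC, non-hair cells; gent., gentamicin). The column of gentamicin-treated non-hair cell replicate 3 is above 0 throughout, from 0.26 for Ier3 to 1.48 for Arc, while Nr4a3 does not follow the other genes in several libraries.

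Among all other tested genes, those whose deviations over the 12 libraries were most like each member included further rapid response genes. The closest to Nr4a1 were Dusp1, Cyr61 and Dusp5 (r = 0.96, 0.96 and 0.95), and the closest to Ier2 were Zfp36, Junb and Fos (r = 0.95, 0.94 and 0.91). Egr2 was closest to Cyr61, Egr4 and Cirbp (r = 0.96, 0.94 and 0.94), Egr3 to Cirbp, Srf and Prdm1 (r = 0.97, 0.97 and 0.95), and Arc to Egr4, Cyr61 and Abcb8 (r = 0.98, 0.95 and 0.94). Egr1 was closest to Rgag1, Junb and 2410131K14Rik (r = 0.91, 0.90 and 0.86). The neighbours of the remaining genes were mostly of other kinds: Slc39a3, Ip6k3 and 2700070H01Rik for Nr4a2 (r = 0.98, 0.97 and 0.96), Ccdc85c, Bcar3 and Rxrg for Nr4a3 (r = 0.99, 0.96 and 0.94), Pik3c2g, H2-Bl and Matn2 for Ier3 (r = 0.88, 0.85 and 0.83), and Myo15, Gm8979 and Sgk1 for Btg2 (r = 0.98, 0.94 and 0.93). With 16088 genes ranked over 12 libraries, high values of r arise in number, and Spearman ranking kept 10 of these 30 neighbours.

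The difference between the responses of hair cells and non-hair cells was tested for each gene. At a limma adjusted p under 0.05 it was called for 0 of the 10 genes, against 13.4% of all tested genes, and 1 had an unadjusted p under 0.05, against 30.3% of tested genes. That gene was Btg2, whose fold change was 0.19 in hair cells and -0.85 in non-hair cells, a difference of 1.04 ± 0.44 (limma unadjusted p = 0.0366, adjusted p = 0.137). Without treated non-hair cell replicate 3 the difference for Btg2 was 1.5 ± 0.23 (limma adjusted p = 0.00544), and 14.2% of all tested genes were called. That library held the highest treated value of Btg2 in non-hair cells, so leaving it out had to enlarge this difference. For the other genes the differences lay between -0.45 ± 0.27 (Ier3) and 0.36 ± 0.32 (Nr4a3). Standard errors were 0.89 for Arc, 0.70 for Egr3, 0.62 for Nr4a1 and 0.58 for Egr2. For these genes at least, differences of about the size of the responses themselves could not be detected. A difference that was not called is therefore not evidence of equal responses.

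The relatives of these genes moved less uniformly. Of the 9 tested relatives, 3 rose and 1 fell in hair cells, where 27.5% of all tested genes met the criteria, and 0 met them in non-hair cells, where 5.45% of all tested genes did (2 of the 9 had an unadjusted limma p under 0.05, against 17.1% of all tested genes). The genes that rose were Tob1 (0.76 ± 0.13, limma adjusted p = 0.00170) and Tob2 (0.43 ± 0.10, limma adjusted p = 0.00623), antiproliferative relatives of Btg2, and Nab1 (0.27 ± 0.06, limma adjusted p = 0.00772), a corepressor that binds EGR proteins. Btg1 fell (-0.39 ± 0.11, limma adjusted p = 0.0224). The fold change of Nab2, the second EGR corepressor, was -0.08 ± 0.30, and that of Egr4 was -1.26 ± 0.70 with a limma adjusted p of 0.190. Ier5 (-0.39), Btg3 (-0.23) and Ier5l (0.16) did not pass either. In non-hair cells the fold changes of the relatives ran from -0.55 for Egr4 through -0.44 for Ier5l, -0.39 for Ier5, -0.24 for Tob2, -0.17 for Tob1, -0.14 for Btg1, -0.08 for Btg3 and -0.02 for Nab1 to 0.16 for Nab2.

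Of 21 factors and kinases that act upstream of immediate early genes, 2 rose and 6 fell in hair cells, against 12.7% and 14.8% of all tested genes, with a median log2 fold change of -0.11 against -0.09 for all genes. Those that fell included all 3 ternary complex factors, the partners of serum response factor: Elk3 (-0.86 ± 0.10), Elk4 (-0.59 ± 0.11) and Elk1 (-0.55 ± 0.10), with limma adjusted p-values of 2.06e-04, 0.00259 and 0.00236. Mef2c (-0.83) and the ERK pathway kinase Map2k1 (-0.58) also fell. Creb1, the cyclic AMP response factor, rose (0.39 ± 0.10, limma adjusted p = 0.01), as did Mef2a (0.45 ± 0.11, limma adjusted p = 0.0114). Srf had a fold change of -0.65 ± 0.23 and missed the criteria (limma adjusted p = 0.0517). In non-hair cells 1 of the 21 was called, while 5.45% of all tested genes were. It was Mef2b (-0.88, limma adjusted p = 0.125), with group means of 2.01 and 3.66 normalized reads and overlapping replicates.

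The 45 other rapid response genes, AP-1 included, split in hair cells. Of these 10 fell and 8 rose, against 14.8% and 12.7% of all tested genes, with a median log2 fold change of -0.27. The largest falls were those of Fosb (-1.38 ± 0.41), Socs3 (-1.36 ± 0.35), Zfp36 (-1.18 ± 0.27), Fos (-1.15 ± 0.28) and Klf4 (-1.05 ± 0.22), with limma adjusted p-values between 0.00428 and 0.0235. The largest rises were those of Klf10 (2.04 ± 0.19, limma adjusted p = 5.58e-05), Jun (1.45 ± 0.31), Gadd45g (1.33 ± 0.27), Plk3 (0.89 ± 0.17) and Ppp1r15a (0.79 ± 0.22), the last 4 with limma adjusted p-values between 0.00233 and 0.0181. None of the 10 genes described here rose with this second set. In non-hair cells 42 of the 45 fold changes were negative, against 51.1% of all genes. Of the 45, 4 fell and 0 rose, while 2.26% of all tested genes fell and 512 of the 16088 rose. The 4 were Cebpb (-0.93 ± 0.14, limma adjusted p = 0.0301), Junb (-0.78 ± 0.21, limma adjusted p = 0.113), Zfp36l1 (-0.54 ± 0.15, limma adjusted p = 0.122) and Nfkbia (-0.47 ± 0.12, limma adjusted p = 0.110). Between the control populations, 39 of the 45 were lower in hair cells, against 42.1% of all tested genes.

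**Figure D5:**
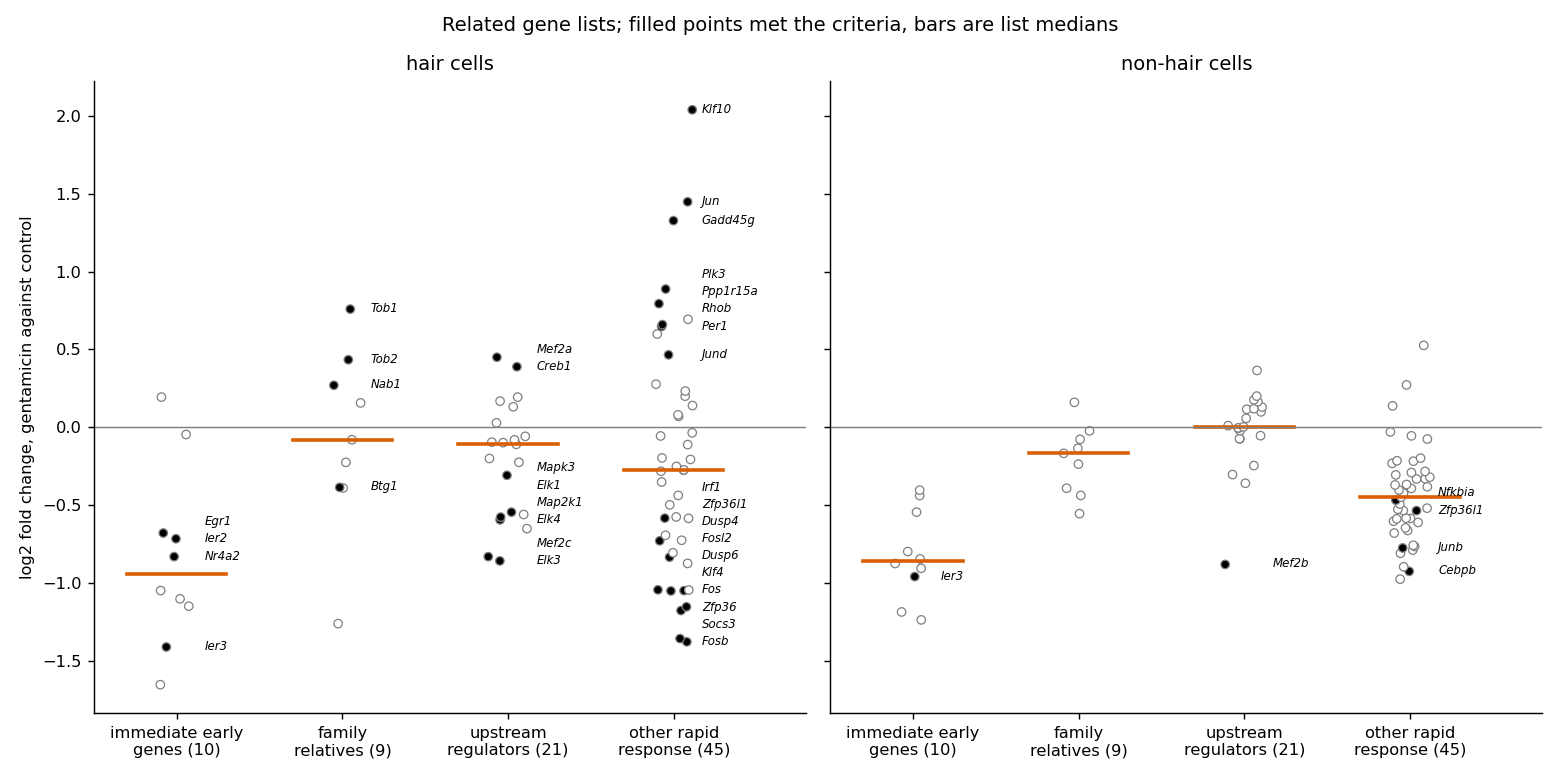
Log2 fold change after gentamicin (vertical axis) for the 10 immediate early genes, 9 relatives, 21 upstream regulators and 45 other rapid response genes in hair cells (left) and non-hair cells (right); filled points met the criteria and are named beside them from highest to lowest, and orange bars are list medians. In hair cells the immediate early genes lie almost wholly below 0 (median -0.94), while the other rapid response genes run from Fosb at -1.38 to Klf10 at 2.04.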

How the data were processed

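Single-end reads of 50 bp were trimmed at a quality of 25 and aligned to mm10 with TopHat 2, per the labels and the methods of the study. The authors deposited a normalized score for each gene and replicate, a read number scaled per replicate with 1 added. The methods speak of RPKM, but no division by gene length was found, and the scaling factor is not given in the sources used here. Dividing by the smallest step of a replicate returned whole reads, within 0.02, for 73.7 to 75.2% of values below 50 reads, so no count model was used.

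Genes were kept where recovered reads summed to 100 or more in the 12 replicates. Log2 scores were fitted in limma 3.58.1 (R 4.3.3) with 4 groups in 1 model and a variance trend. Replicates were biological, per the labels and methods. Gentamicin contrasts were read at a p below 0.01 before adjustment with a change of more than 1.2-fold, the other contrasts at a Benjamini-Hochberg adjusted p under 0.05. Depth limits genes with few reads per library. Tables were handled with pandas 2.3.3 in Python 3.11.15 with scipy 1.17.1, and the fit was tested on simulated data.

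Every gene of the set is named with its 3 nearest genes, and from each related list at most 5 called genes per direction and gentamicin contrast. Relatives, flagged genes and Srf, which was chosen after its values were seen, are named as well. These genes and lists were chosen with earlier results of these data known. Same-numbered control hair cell and non-hair cell replicates deviated together across genes (r = 0.216, 0.316 and 0.200), so these numbers appear to pair the control samples. Same-numbered treated hair cell and non-hair cell replicates had r of 0.377, -0.039 and -0.018. For treated against control samples of the same number r ran from -0.233 to 0.683, which does not settle a pairing. Apart from the replicate block, the fits were unpaired. Gene positions are from GENCODE M21 and promoters from RefSeq (GRCm38.p6). Alternatives were TMM, total read scaling, an offset of 0.1, other read minimums, a replicate block, the compared groups alone, other thresholds, each replicate left out, no variance trend and a subtracted mesenchymal share. The other cell type markers were those of endothelium, macrophages, melanocytes and erythroid cells.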

Additional observations from a re-analysis of the deposited data

Results flagged for a closer look

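For the 10 immediate early genes, no difference between the responses of hair cells and non-hair cells passed a limma adjusted p of 0.05. The response did differ by that test for several genes of the related lists. These were 10 of the 45 other rapid response genes, 2 of the 9 tested relatives and 4 of the 21 upstream regulators. Of all tested genes 13.4% differed. Differences are given here as the log2 fold change in hair cells minus that in non-hair cells. Of the other rapid response genes, the difference was 2.62 for Klf10, 2.12 for Gadd45g, 1.97 for Jun, 1.24 for Csrnp1, 1.2 for Ppp1r15a, 1.09 for Plk3, 1.06 for Cebpb, 0.88 for Per1, 0.88 for Rhob and 0.76 for Jund. The antiproliferative relatives of Btg2 had differences of 0.93 (Tob1) and 0.67 (Tob2). Of the upstream regulators called, those flagged were Elk3 (-0.85), Elk4 (-0.59) and Elk1 (-0.52).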

How the results depend on the processing

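The count of the 10 genes that fell in hair cells was 4 as reported, 2 with scaling by total reads, 8 in a fit of the compared groups alone, 1 with the mesenchymal share subtracted, and between 1 and 3 with each replicate left out. Of the 16088 tested genes 2381, 1591, 2920 and 2115 fell in the first 4 of these settings, and between 1652 and 2158 with each replicate left out. With the replicate number as a block the count was 6 in hair cells and 4 in non-hair cells (Arc, Btg2, Ier3 and Nr4a1), against 4 and 1 without it. Of all tested genes 2589 and 381 fell under the block, against 2381 and 364 without it. In hair cells Nr4a2 lost its call under the block and Arc, Egr2 and Egr3 gained one. The block changed no call among the 10 genes between the control populations. In non-hair cells the count was 0 at an adjusted p under 0.05 and with the mesenchymal share subtracted from the hair cell libraries, where the fold change of Ier3 stayed at -0.96 and its limma p became 0.0265, since all groups share 1 spread per gene. It was between 1 and 9 with each replicate left out, where between 157 and 840 of all tested genes fell. For the difference between responses it ranged from 0 to 1 over the replicates left out. The cause of the other changes was not tested. Between control populations the count of 8 was the same under every alternative run. No value of the 10 genes that was called reversed its sign. Spearman ranking kept 10 of the 30 nearest genes.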
